A study of Mus musculus with 24 samples.

Results

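The mouse microRNAs miR-99a, miR-99b, miR-100, miR-125a-5p and miR-125b-5p were followed in the soleus, a postural muscle of the hind limb. They were chosen by name, as the TaqMan assays for these mature mouse strands, without the passenger strands that carry an asterisk. All 5 were found, each in 1 well of the card called A, among 584 microRNA assays in all (375 on card A and 209 on card B). MicroRNA abundance had been measured by real-time PCR in 12 male mice aged 12 weeks, 3 in each of 4 groups. MCK-PPARa mice carried a transgene that overexpresses PPARα in muscle, and NTGa mice were their non-transgenic (wild-type) littermates. MCK-PPARb mice carried a transgene that overexpresses PPARβ in muscle, and NTGb mice were the non-transgenic (wild-type) littermates of that line. MCK stands for muscle creatine kinase, whose promoter drives transgenes in striated muscle. The whole muscle of a transgenic mouse therefore held fibres in which the transgene is driven beside other cell types. The strain and the number of founders are not stated in the labels, and the cards hold no assay for the transgenes themselves. The comparison asked how the microRNAs of this muscle differ when either receptor is raised in it.

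The genes of these microRNAs lie in 3 clusters in the mouse genome, and in each of them a let-7 gene stands between a miR-99 or miR-100 gene and a miR-125 gene. The same arrangement is known from many animals, and miR-125 is the vertebrate counterpart of lin-4, the first microRNA described in Caenorhabditis elegans. A microRNA recognises messenger RNAs mainly through its seed, the bases 2 to 8 from the 5′ end. Members of the miR-99 and miR-100 group are known to repress mTOR and the IGF1 receptor, which act in growth signalling, and miR-125b is known in mouse myoblasts to repress IGF2 and to hold back differentiation. PPARα and PPARβ, receptors activated by fatty acids, are nuclear transcription factors of lipid oxidation.

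The mature sequences show why the 5 assays fall into 2 seed groups. They are given 5′ to 3′ from RefSeq (build GRCm38.p6), with the seed in capitals, and all 5 members were matched by name. The strands with the seed of miR-99 and miR-100 are:
miR-99a: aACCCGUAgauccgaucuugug
miR-100: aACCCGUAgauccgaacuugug
miR-99b: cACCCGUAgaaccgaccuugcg
The strands with the seed of miR-125 are:
miR-125b-5p: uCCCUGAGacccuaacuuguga
miR-125a-5p: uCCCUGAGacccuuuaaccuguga
Counted from 1 at the 5′ end of miR-99a, miR-100 differs by 1 substitution of 22 bases, U16A. miR-99b differs from miR-99a by 4, A1C, U11A, U16C and U21C. miR-125a-5p has 24 bases and miR-125b-5p has 22, and they share their first 13 and their last 5 bases. Among 1679 mature mouse names in that table, ACCCGUA is the seed of 3, which are the members themselves. CCCUGAG is the seed of 5, namely the pair above, miR-351-5p, miR-6367 and miR-6394.

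miR-99b lies on the plus strand at chr17:17830194-17830215 and miR-125a-5p at chr17:17830817-17830840, both inside the protein-coding gene Spaca6, and Mirlet7e lies 172 bases after the start of Mir99b. miR-99a lies at chr16:77598940-77598961 on the plus strand, with Mirlet7c-1 at 732 bases from it and Mir125b-2 at 47339 bases. miR-100 lies at chr9:41531437-41531458 on the plus strand inside the long non-coding gene Mir100hg, which also holds Mirlet7a-2, whose let-7a strand was found in its hairpin at 5295 bases from it, and Mir125b-1, at 50503 bases. miR-125b-5p therefore has a pair of source genes, at chr9:41581940-41581961 and chr16:77646279-77646300, whose mature strands are the same, and a PCR assay of the mature strand cannot tell them apart. The let-7 strands of these clusters share the seed GAGGUAG, and let-7e and let-7c each differ from let-7a by 1 base (G9U and G19A, counted from the 5′ end of the first-named):
let-7e: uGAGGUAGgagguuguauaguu
let-7c: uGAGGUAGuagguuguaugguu
let-7a: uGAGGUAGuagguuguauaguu

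**Figure D1:**
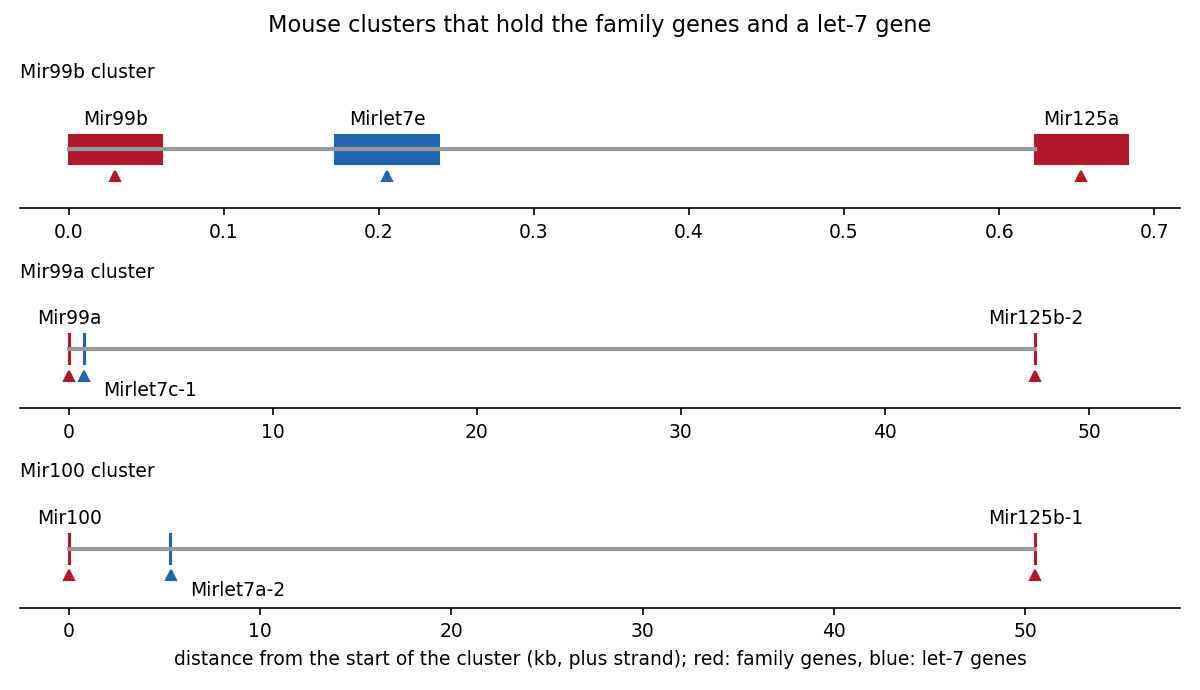
The 3 mouse clusters drawn to scale along the plus strand, each from the first base of its first mature sequence, in kilobases. Boxes span the mature sequences of each gene in RefSeq (triangles mark their middles), with family genes in red and let-7 genes in blue. Mir99b, Mirlet7e and Mir125a lie within 1 kb, whereas the miR-125b genes lie 47339 and 50503 bases from Mir99a and Mir100.

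Each value is a cycle threshold (Ct), the number of PCR cycles needed to reach a set fluorescence, so that a lower Ct stands for more template. A Ct under 35 counted as detected. Between 248 and 296 microRNA assays were detected per animal, the most in NTGb replicate 2, which also had the lowest mean Ct of the card A assays used for scaling (27.6, where the animals ranged up to 28.4). All 6 skeletal muscle marker microRNAs were detected in all 12 animals, as were both endothelial markers, 4 of 5 smooth muscle and fibroblast markers, 4 of 5 leukocyte markers, the 1 erythroid marker on the cards and 2 of 4 neural markers. None of 6 epithelial markers was detected in all 12 animals, and no marker on the cards was undetected in every animal. Replicates, biological by their labels, were taken as separate animals.

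miR-125b-5p had the lowest Ct of the family in all 12 animals. Its Ct was 25.2, 25.4 and 24.9 in the MCK-PPARa mice and 25.1, 25.3 and 25.3 in the NTGa mice. It was 25.4, 25.3 and 25.8 in the MCK-PPARb mice and 25.8, 25.1 and 26.2 in the NTGb mice. Each transgenic group overlapped with its littermates, and the highest value, in NTGb replicate 3, was little more than 1 cycle above the lowest, in MCK-PPARa replicate 3.

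miR-125a-5p, its seed partner, followed at a Ct of 26.3, 26.9 and 27.6 in the MCK-PPARa mice and of 26.5, 26.3 and 26.6 in the NTGa mice. The MCK-PPARb mice had 26.3, 26.8 and 26.9 and the NTGb mice 26.8, 25.7 and 26.5. MCK-PPARa replicate 3 had the highest Ct of the 12 animals and NTGb replicate 2 the lowest, while the NTGa mice lay within 1 cycle of each other.

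miR-99b was the only member of the miR-99 and miR-100 group that was detected throughout. Its Ct was 29.7, 29.95 and 29.5 in the MCK-PPARa mice and 29.9, 29.5 and 29.7 in the NTGa mice. It was 29.6, 30.0 and 30.3 in the MCK-PPARb mice and 30.3, 29.0 and 30.7 in the NTGb mice. The NTGb mice held both the lowest and the highest value, in replicate 2 and replicate 3, and the other groups lay between them.

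miR-99a and miR-100 were almost without a Ct in this muscle. miR-99a had a Ct in 2 of 12 animals, 34.3 in MCK-PPARa replicate 1, which counted as detected, and 37.4 in NTGb replicate 2, which did not. miR-100 had a Ct in 1 of 12 animals, 32.6 in MCK-PPARb replicate 1. No group had either microRNA in more than 1 of its 3 mice, so no difference between groups could be measured, and neither was tested. Each was read in a single well per animal, and an empty well says that no Ct was called there, not that the strand was absent. On the same card 75 of 375 assays had no Ct in any animal and 49 had one in 1 or 2 animals, against 172 with a Ct in all 12.

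**Figure D2:**
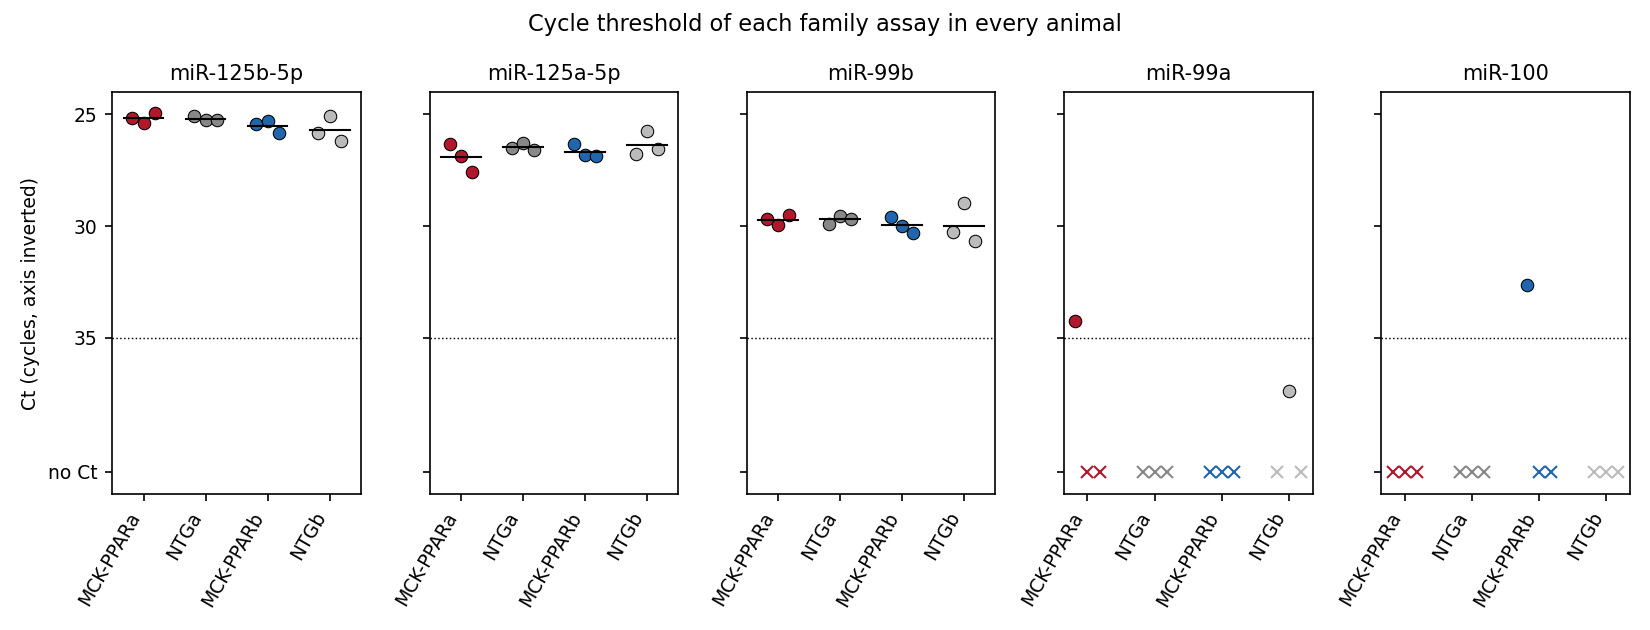
Ct of the 5 family assays (vertical axis, in cycles and inverted so that more template is higher) in each of 3 animals per group, with the group mean as a bar where all animals had a Ct and crosses where no Ct was called. The dotted line is Ct 35. miR-125b-5p, miR-125a-5p and miR-99b form 3 bands near Ct 25, 27 and 30 in every group, and miR-99a and miR-100 have 2 and 1 called wells.

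The order miR-125b-5p, miR-125a-5p, miR-99b was the same in 12 of 12 animals. Ranked by mean Ct among the 375 assays of card A, with 1 the lowest Ct and an empty well counted as Ct 40, miR-125b-5p stood at 34, miR-125a-5p at 48 and miR-99b at 96. In single animals the rank of miR-125b-5p ranged from 29 to 43, that of miR-125a-5p from 43 to 63 and that of miR-99b from 90 to 105. The ranges of neighbouring members met at most at 1 rank, and within each animal they never crossed. miR-99a and miR-100 stood at 253 and 258, among assays with a Ct in few animals. Assays differ in efficiency, so these are ranks of Ct and not of numbers of molecules.

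The closest neighbours in that order differed from the members by less than the spread between animals. miR-106a, directly above miR-125b-5p, had a mean Ct of 25.36 and let-7e, directly below it, one of 25.44, against 25.40 for miR-125b-5p, whose SD over the 12 animals was 0.37. miR-125a-5p at 26.60 lay between miR-328 (26.49) and miR-342-3p (26.61), with an SD of 0.45. miR-99b at 29.84 lay between miR-20b (29.82) and miR-491 (29.84), also with an SD of 0.45. miR-99a stood between miR-375 and miR-684, and miR-100 between miR-297c and miR-183. The let-7 partners stood at rank 35 for let-7e, 53 for let-7c and 80 for let-7a.

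**Figure D3:**
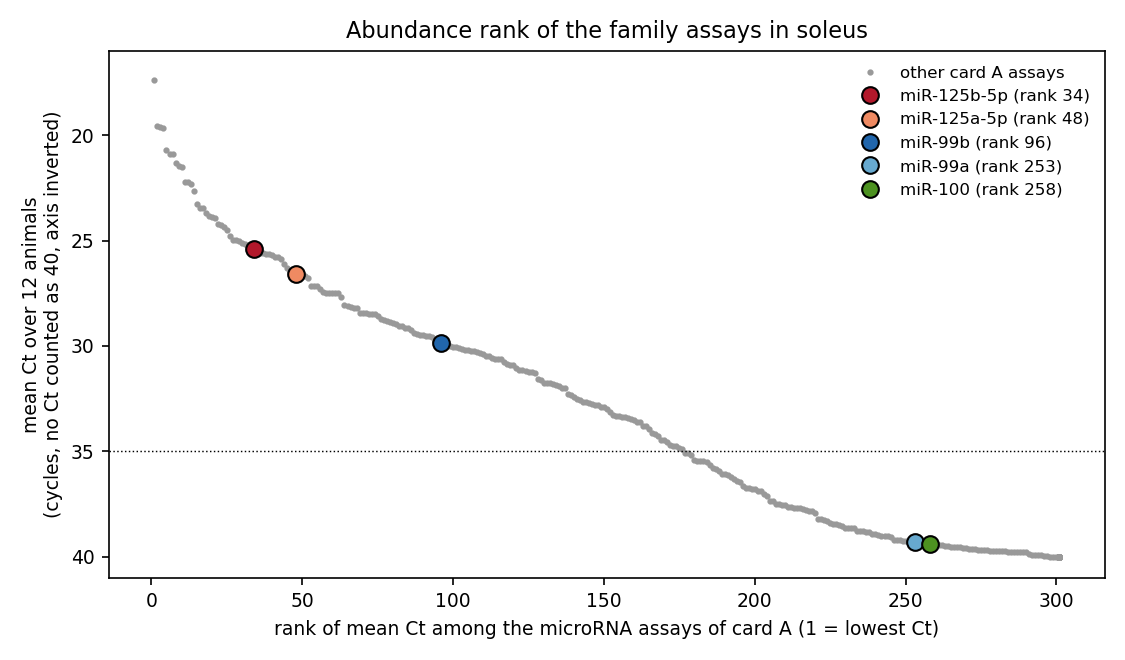
Mean Ct over 12 animals (vertical axis, in cycles, inverted, with an empty well counted as 40) against rank among the microRNA assays of card A, with the 5 family assays marked. The dotted line is Ct 35. miR-125b-5p, miR-125a-5p and miR-99b lie on the upper part of the curve at ranks 34, 48 and 96, and miR-99a and miR-100 on its tail at 253 and 258.

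Within a cluster, the assays of its microRNAs differed in Ct, a value that also holds the efficiency of each assay. In the Mir99b cluster let-7e and miR-125a-5p lay at a mean Ct of 25.4 and 26.6 and miR-99b at 29.8, and let-7e had a lower Ct than miR-125a-5p in 12 of 12 animals. In the Mir99a and Mir100 clusters let-7c and let-7a were detected in all 12 animals at a mean Ct of 27.1 and 28.9, and miR-125b-5p in all 12, while miR-99a and miR-100 were each detected in 1. Both let-7 strands also have source genes outside these clusters, so their levels do not report on the clusters alone.

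The other strands of the same hairpins gave values for miR-99b and for miR-99a. The strand called miR-99b* (miR-99b-3p in RefSeq) and mouse miR-99a-3p share a seed of their own, AAGCUCG:
miR-99b*: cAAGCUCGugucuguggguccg
miR-99a-3p: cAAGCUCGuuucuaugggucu
miR-99b* was detected in all 12 animals. Its Ct was 33.1, 33.4 and 31.8 in the MCK-PPARa mice, 31.9, 31.7 and 32.02 in the NTGa mice, 31.3, 32.04 and 31.6 in the MCK-PPARb mice and 32.1, 31.6 and 30.9 in the NTGb mice. MCK-PPARa replicates 1 and 2 had the highest values of all, and miR-99b itself had a lower Ct than miR-99b* in 12 of 12 animals. For the partner of miR-99a the cards hold only an assay with a rat name, rno-miR-99a*, which had a Ct in 12 of 12 animals and was detected in 10, although the assay for miR-99a itself was detected in 1. The Ct of rno-miR-99a* was 38.6, 33.6 and 32.5 in the MCK-PPARa mice, 33.6, 34.8 and 33.5 in the NTGa mice, 32.1, 31.8 and 32.5 in the MCK-PPARb mice and 32.3, 32.4 and 37.6 in the NTGb mice. The animals without detection were MCK-PPARa replicate 1 and NTGb replicate 3. How an assay of rat design reads the mouse strand was not tested.

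The other assays named for miR-125a or miR-125b also had higher Ct values than the members, though the hairpin of origin of the strands named miR-125b* and miR-125b-3p was not settled. miR-125b* had a Ct from 31.8 to 32.7 and the rat-named rno-miR-125b* one from 32.2 to 34.0, both detected in all 12 animals. miR-125a-3p had a Ct in all 12 animals but was detected in 5, and miR-125b-3p had a Ct in 2 and was detected in none. miR-125a-5p had a lower Ct than miR-125a-3p, and miR-125b-5p a lower Ct than miR-125b*, in 12 of 12 animals. miR-351, which carries the seed of miR-125 and was looked up for that reason after the files had been seen, had a Ct in 10 animals and was detected in 1. miR-6367 and miR-6394 were not analysed here.

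For the comparison of groups, levels were scaled within each card. The scaled level is the mean Ct of the 149 card A assays detected in all 12 animals minus the Ct of the microRNA (59 assays for card B), so it is a log2 value if template doubles in each cycle. A microRNA was tested where it was detected in all 3 mice of at least 1 group, which held for 268 assays and for 3 of the 5 members, miR-99b, miR-125a-5p and miR-125b-5p. A difference in the level of a whole muscle does not tell fewer cells of a type from less microRNA per cell. Below, a microRNA counts as changed at an adjusted p under 0.05, by limma with Benjamini-Hochberg adjustment over the 268 assays.

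No member changed in MCK-PPARa muscle. miR-125b-5p had scaled levels of 2.90, 2.59 and 2.95 in the MCK-PPARa mice, against 2.70, 2.39 and 2.67 in the NTGa mice, and the groups overlapped. The difference was 0.22 on the log2 scale (SE 0.21, limma adjusted p = 0.700), with a 95% interval from 0.843 to 1.61 times the NTGa level. miR-99b had -1.64, -1.99 and -1.61 in the MCK-PPARa mice, against -2.12, -1.87 and -1.77 in the NTGa mice, which also overlapped. Its difference was 0.18 (SE 0.27, limma adjusted p = 0.811), with an interval from 0.745 to 1.71 times.

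miR-125a-5p was the member whose MCK-PPARa mice were spread most widely. Its scaled levels were 1.75, 1.11 and 0.29 in the MCK-PPARa mice, against 1.27, 1.40 and 1.31 in the NTGa mice. The MCK-PPARa mice lay on both sides of the NTGa mice, with replicate 1 above them and replicates 2 and 3 below. The difference was -0.28 (SE 0.33, limma adjusted p = 0.759, interval 0.496 to 1.36 times), and it turned to 0.09 when MCK-PPARa replicate 3 was left out and was -0.63 without MCK-PPARa replicate 1. Against NTGb in place of NTGa it was -0.73 (limma adjusted p = 0.216) and against all 6 controls -0.51 (limma adjusted p = 0.360).

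Set beside all assays, 0 of the 3 tested members were called, where 6 of 268 assays (2.24%) were. At an unadjusted p under 0.05, limma found 16.4% of all assays and 0 members. No member had groups that did not overlap, where 25.7% of all assays did. The median difference of the members was 0.18 and that of all assays tested 0.12. The mean scaled level of the 6 skeletal muscle markers was lower in the MCK-PPARa mice (5.91 to 6.01) than in the NTGa mice (6.39 to 6.43), that of the 5 leukocyte markers lay at 0.33 to 0.52 against 0.06 to 0.38, that of the 5 smooth muscle and fibroblast markers at 0.79 to 1.17 against 0.72 to 0.80, and that of the erythroid marker at -1.09 to -0.06 against -1.61 to -0.98. The endothelial markers lay at 7.47 to 8.11 against 7.88 to 8.13, the neural ones at -4.03 to -3.03 against -4.09 to -3.25 and the epithelial ones at -6.32 to -5.62 against -6.50 to -4.62. All but the erythroid values are means over a list, which a single marker can move, and values of single markers are not given here. The part of these markers in the values of the members was not tested.

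In MCK-PPARb muscle, again, no member changed. miR-125b-5p had scaled levels of 2.67, 2.70 and 2.29 in the MCK-PPARb mice, against 2.57, 2.50 and 2.25 in the NTGb mice, a difference of 0.11 (SE 0.21, limma adjusted p = 0.882, interval 0.782 to 1.50 times). miR-125a-5p had 1.77, 1.20 and 1.25 in the MCK-PPARb mice, against 1.60, 1.83 and 1.91 in the NTGb mice. Replicates 2 and 3 of the MCK-PPARb mice lay below all NTGb mice, but replicate 1 lay among them. The difference was -0.37 (SE 0.33, limma adjusted p = 0.811, interval 0.466 to 1.28 times).

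miR-99b was the member with the smallest difference in this line. It had -1.48, -1.98 and -2.17 in the MCK-PPARb mice, against -1.89, -1.41 and -2.24 in the NTGb mice, and the difference was -0.04 (SE 0.27, limma adjusted p = 0.961, interval 0.643 to 1.48 times). Here 0 of 268 assays (0%) were called by limma at the adjusted threshold. At an unadjusted p under 0.05 limma found 23 of them (8.58%), none of them a member, and 15.3% of all assays and no member had groups that did not overlap. The median difference was -0.04 for the members and 0.02 for all assays tested. The skeletal muscle markers lay at 6.59 to 6.68 in the MCK-PPARb mice, against 6.11 to 6.91 in the NTGb mice, the leukocyte markers at 0.06 to 0.39 against 0.34 to 0.48 and the smooth muscle and fibroblast markers at 0.60 to 0.64 against 0.62 to 0.99. The endothelial markers lay at 7.10 to 8.11 against 7.30 to 8.36, the neural ones at -4.00 to -3.36 against -3.92 to -3.42 and the epithelial ones at -6.29 to -5.00 against -6.42 to -6.01. The erythroid marker lay at -1.27 to -0.90 in the MCK-PPARb mice, against -2.04 to -1.31 in the NTGb mice, which did not overlap, and its part in the values of the members was not tested.

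**Figure D4:**
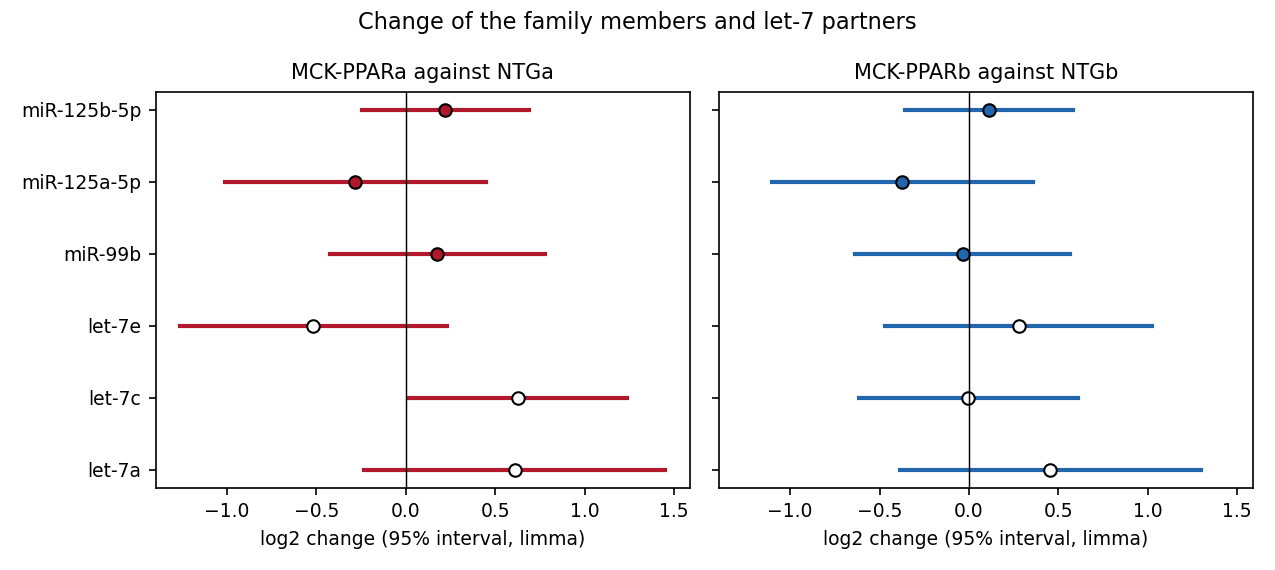
Difference in scaled level (log2, horizontal axis) of the 3 tested members (filled points) and of the let-7 microRNAs of their clusters (open points), for MCK-PPARa against NTGa on the left and MCK-PPARb against NTGb on the right, with 95% intervals from limma and 3 animals per group. All intervals of the members include 0, and their points lie between -0.37 and 0.22.

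The effects of the transgenes on the members were also compared with each other, as MCK-PPARa minus NTGa, minus the difference between MCK-PPARb and NTGb. This gave 0.21 for miR-99b (SE 0.38, limma adjusted p = 0.892), 0.11 for miR-125b-5p (SE 0.30, limma adjusted p = 0.919) and 0.09 for miR-125a-5p (SE 0.47, limma adjusted p = 0.966). No member passed, where 3 of 268 assays (1.12%) did, nor did any have an unadjusted p under 0.05, where 10.4% of assays did. The 95% intervals reached from -0.64 to 1.06, from -0.55 to 0.77 and from -0.94 to 1.12, in the same order, so differences between the effects of about 1 on the log2 scale lay within them for miR-99b and miR-125a-5p.

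Between the control groups, NTGa against NTGb, no member passed either, where 5 of 268 assays (1.87%) did, and none had an unadjusted p under 0.05, where 15.7% of assays did. miR-125a-5p had 1.27 to 1.40 in the NTGa mice and 1.60 to 1.91 in the NTGb mice, a difference of -0.45 (SE 0.33, limma adjusted p = 0.558). It was also the 1 member of 3 whose groups did not overlap, where 19.4% of all assays had that pattern. miR-125b-5p differed by 0.15 (limma adjusted p = 0.746) and miR-99b by -0.07 (limma adjusted p = 0.895). The values of the members moved with the scaling. All 3 were read on card A, so another reference shifts them by the same amount and cannot change their order. Scaled to U6, miR-125a-5p differed by 0.10, miR-99b by 0.48 and miR-125b-5p by 0.70 (lowest limma adjusted p 0.148). The signs of miR-125a-5p and miR-99b turned.

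The spread between animals differed among the members. The residual SD of the scaled log2 level was 0.19 for miR-125b-5p, 0.31 for miR-99b and 0.41 for miR-125a-5p. That of miR-125a-5p came mostly from 1 group. Its SD was 0.73 in the MCK-PPARa mice, 0.07 in the NTGa, 0.31 in the MCK-PPARb and 0.16 in the NTGb mice. Among the 99 tested card A assays with a mean Ct between 24 and 31, whose median was 0.34, 9 had a lower SD than miR-125b-5p, 37 a lower one than miR-99b and 57 a lower one than miR-125a-5p. This SD holds the differences between mice as well as the error of the PCR, since each member was read in 1 well per animal.

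The let-7 microRNAs of the clusters did not change either. In MCK-PPARa muscle let-7c had 1.14, 0.69 and 1.74, against 0.70, 0.39 and 0.60 in NTGa muscle, a difference of 0.63 (SE 0.28, limma adjusted p = 0.295, unadjusted p = 0.045). That of let-7c was 0.35 without MCK-PPARa replicate 3. let-7a differed by 0.61 (SE 0.38, limma adjusted p = 0.499), and by 0.14 without NTGa replicate 3 or 0.94 without NTGa replicate 1. let-7e, the neighbour of miR-99b and miR-125a-5p, had 2.88, 2.39 and 1.54 in the MCK-PPARa mice, against 2.63, 2.79 and 2.93 in the NTGa mice, a difference of -0.52 (SE 0.34, limma adjusted p = 0.512), which was -0.15 without MCK-PPARa replicate 3 and -0.82 without MCK-PPARa replicate 1. MCK-PPARa replicate 3 had the highest Ct of the 12 animals for let-7e (26.4) as it did for miR-125a-5p (27.6), and it had the lowest for miR-125b-5p. In MCK-PPARb muscle, against NTGb muscle, the differences were 0.45 for let-7a, -0.003 for let-7c and 0.28 for let-7e, and the lowest limma adjusted p of the 3 was 0.787.

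Of 14 further let-7 assays, among them miR-98 and the asterisk strands, 8 were tested and none changed. Their median difference was 0.14 in MCK-PPARa against NTGa muscle, with 7 of 8 above 0, and 0.21 in MCK-PPARb against NTGb muscle, also with 7 of 8 above 0. Over all assays tested, 157 of 268 were above 0 in the first comparison and 138 of 268 in the second. Of the 6 other assays of the members 4 were tested, and none changed in either line. In MCK-PPARa against NTGa muscle the farthest apart was miR-99b*, with scaled levels of -4.94, -4.55 and -3.19 in the MCK-PPARa mice, against -3.25, -2.76 and -3.49 in the NTGa mice. That difference was -1.05 (SE 0.52, limma adjusted p = 0.351), next to 0.18 for miR-99b itself. Against NTGb in place of NTGa, miR-99b* differed by -1.71 (limma adjusted p = 0.117), and against all 6 controls by -1.38 (limma adjusted p = 0.153). Leaving out each animal in turn gave -1.57 to -0.72 for miR-99b* against NTGa. In MCK-PPARb against NTGb muscle the farthest apart was rno-miR-99a*, at 0.86 (SE 0.61, limma adjusted p = 0.692), with 1 NTGb animal not detected, and miR-99b* differed by -0.33 (SE 0.52, limma adjusted p = 0.882). miR-125b* differed there by -0.36 (SE 0.24, limma adjusted p = 0.609), with -3.25, -3.22 and -3.42 in the MCK-PPARb mice, against -2.93, -3.19 and -2.68 in the NTGb mice. These groups did not overlap, where 15.3% of all assays had that pattern. The rat-named rno-miR-125b* differed by -0.06 (SE 0.28, limma adjusted p = 0.951), and its groups overlapped.

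The partner strands were also set side by side between the control groups, where none passed. All 4 tested ones, among them both miR-125b* and rno-miR-125b*, had lower levels in the NTGa mice than in the NTGb mice. Their median difference was -0.72 on the log2 scale. Over all assays of both cards the median was -0.03, and 139 of 268 were below 0. The 4 were all read on card B. For rno-miR-99a*, NTGa replicate 2 and NTGb replicate 3 were at the floor of the card B scale, -5.66. miR-125b* had -3.59, -3.44 and -4.13 in the NTGa mice, against -2.93, -3.19 and -2.68 in the NTGb mice. These groups did not overlap, where 19.4% of all assays had that pattern. The difference of miR-125b*, -0.79 (SE 0.24), did not pass, with a limma adjusted p of 0.122. The rat-named rno-miR-125b* differed by -0.13 (SE 0.28, limma adjusted p = 0.831), and its groups overlapped. Members and partner strands were read on different cards, each scaled to its own assays, except for miR-125a-3p and miR-125b-3p.

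A difference of Ct between assays of the same card and animal needs no scaling, and it was compared within the clusters and between the miR-125 members. Of 9 planned pairs 3 had a Ct in every animal, which gave 6 comparisons, and the 3 other pairs of a let-7 and a miR-125 strand of the same cluster were added after the values had been seen. With 3 animals against 3 the exact two-sided permutation test cannot give a p under 0.1, and after Benjamini-Hochberg adjustment all 6 planned ones stood at 0.5. The Ct of let-7e minus that of miR-99b was -4.51, -4.37 and -3.14 in the MCK-PPARa mice, against -4.75, -4.65 and -4.70 in the NTGa mice. All MCK-PPARa mice lay above all NTGa mice, with means of -4.01 ± 0.75 and -4.70 ± 0.05 (SD, n = 3 each, exact permutation p = 0.1). The difference of these means, 0.69 cycles, ranged from 0.26 to 0.95 when each animal was left out in turn, and it was 0.26 without MCK-PPARa replicate 3. In the other line the same pair had means of -4.61 ± 0.77 in the MCK-PPARb mice and -4.30 ± 0.62 in the NTGb mice (SD, n = 3 each, exact permutation p = 0.5), which overlapped. How often other pairs of card A assays lacked overlap was not counted. Of single assays tested, 25.7% lacked it in MCK-PPARa against NTGa.

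The remaining planned pairs overlapped between groups in both lines. miR-99b minus miR-125a-5p, the ends of the Mir99b cluster, averaged 2.79 ± 0.79 in the MCK-PPARa mice and 3.25 ± 0.15 in the NTGa mice (SD, n = 3 each, exact permutation p = 0.5). It averaged 3.29 ± 0.13 in the MCK-PPARb mice and 3.63 ± 0.47 in the NTGb mice (SD, n = 3 each, exact permutation p = 0.3). MCK-PPARa replicate 3, at 1.90, was the lowest of the 12 animals by more than 1 cycle. miR-125a-5p minus miR-125b-5p averaged 1.76 ± 0.79 in the MCK-PPARa mice and 1.26 ± 0.23 in the NTGa mice (SD, n = 3 each, exact permutation p = 0.4), and 1.14 ± 0.31 in the MCK-PPARb mice and 0.66 ± 0.31 in the NTGb mice (SD, n = 3 each, exact permutation p = 0.2). The same MCK-PPARa replicate 3, at 2.66, was the highest of the 12 animals for this pair.

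The added pairs gave 6 further comparisons, and adjusted over all 12 the lowest p was 0.4. The Ct of let-7e minus that of miR-125a-5p was -1.13, -1.28 and -1.24 in the MCK-PPARa mice, against -1.36, -1.38 and -1.62 in the NTGa mice. The groups did not overlap, with means of -1.22 ± 0.08 and -1.45 ± 0.14 (SD, n = 3 each, exact permutation p = 0.1), and MCK-PPARa replicate 3 lay between the other MCK-PPARa mice. The difference of these means, 0.24 cycles, was 0.15 without NTGa replicate 3. In the other line the means were -1.32 ± 0.73 in the MCK-PPARb mice and -0.67 ± 0.20 in the NTGb mice (SD, n = 3 each, exact permutation p = 0.3), which overlapped. The control groups themselves did not overlap for this pair, with the NTGb mice at -0.82 to -0.44. The MCK-PPARa mice lay between the NTGa and the NTGb mice. let-7c minus miR-125b-5p was 1.75, 1.90 and 1.21 in the MCK-PPARa mice, against 2.01, 2.01 and 2.06 in the NTGa mice, again without overlap (exact permutation p = 0.1), and the difference of the means moved from -0.41 to -0.20 without MCK-PPARa replicate 3. For this pair too the control groups did not overlap, with the NTGb mice at 1.28 to 1.86. That pair in the other line, and let-7a minus miR-125b-5p in both lines, overlapped between groups, with exact permutation p from 0.3 to 0.8. For the added pairs, too, the share of other card A pairs without overlap was not counted. Of single assays tested, 25.7% lacked overlap in MCK-PPARa against NTGa and 19.4% between the control groups.

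**Figure D5:**
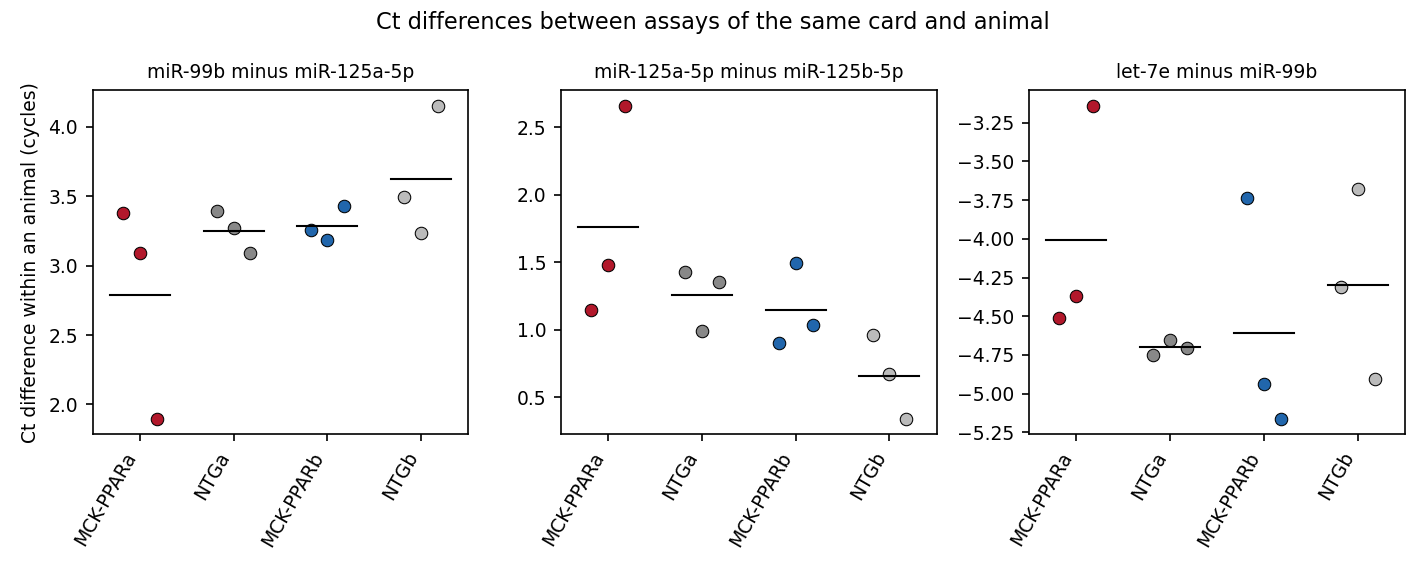
Ct differences within an animal (vertical axes, in cycles, not starting at 0) for the 3 planned pairs with a Ct in every animal, with a point for each of 3 animals per group and the group mean as a bar. The 3 MCK-PPARa points of let-7e minus miR-99b lie above the 3 NTGa points, and MCK-PPARa replicate 3 lies farthest from the other MCK-PPARa mice in all 3 panels.

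Across the 12 animals the scaled levels of members of the same cluster had correlations of either sign. In the Mir99b cluster, Pearson's r was 0.05 for miR-99b with miR-125a-5p, 0.44 for miR-125a-5p with let-7e and -0.50 for miR-99b with let-7e. The first of these depended on single animals: without MCK-PPARa replicate 3 and NTGb replicate 3, which lay farthest from the median of miR-125a-5p, it was 0.86, and without NTGb replicate 2 and MCK-PPARb replicate 1, the farthest for miR-99b, it was -0.39. For miR-125a-5p with let-7e it was -0.47 without the farthest 2 for miR-125a-5p. In the other clusters, miR-125b-5p with let-7c had an r of 0.47 (Spearman's rho 0.31), and 0.81 without NTGb replicate 3 and MCK-PPARb replicate 3, the farthest for miR-125b-5p, and miR-125b-5p with let-7a had 0.33 (rho 0.59), and 0.26 without them. Between the seed partners miR-125a-5p and miR-125b-5p, r was -0.45, but 0.22 without the farthest 2 for miR-125a-5p. Between miR-99b and miR-125b-5p, which come from different clusters, it was 0.53, and 0.78 or 0.15 without the farthest 2 for the first or for the second. All these points share the scaling of their card, and the correlations are descriptions without a test.

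The assays most alike to each member were taken from the 146 other card A assays detected in all 12 animals, by Pearson's r of the scaled level. For miR-125b-5p they were let-7i (r = 0.87, Spearman's rho 0.94), miR-337-5p (0.79, rho 0.83) and miR-181a (0.76, rho 0.75), and r stayed at 0.78, 0.66 and 0.72 without NTGb replicate 3 and MCK-PPARb replicate 3, the animals farthest from the median. For miR-99b they were miR-142-3p, one of the leukocyte markers (r = 0.85, rho 0.80), miR-532-5p (0.69, rho 0.76) and miR-25 (0.67, rho 0.51), with 0.76, 0.52 and 0.51 without the farthest 2. No other leukocyte marker was among them. For miR-125a-5p they were miR-17 (r = 0.77, rho 0.82), miR-339-3p (0.73, rho 0.69) and miR-130b (0.60, rho 0.33). Without the farthest 2 the first pair stood at 0.66 and 0.55, but miR-130b at -0.07, so that likeness rested on those animals. These assays were chosen for their r out of many, and it was given no p.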

How the data were processed

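Per the labels' protocols, soleus RNA (RNAzol B) was measured by TaqMan PCR in 40 cycles, on 2 cards per animal, so the 24 deposited samples were 12 animals. The authors deposited 1 Ct per well, not normalized, per the file headers and the values, and a log2 level was computed from it here. Software, threshold and baseline: not given in the sources used here. Wells of an assay on a card were averaged, with 40 for a well left empty beside one with a Ct. Levels not detected, or below it, were set to a floor of -6.56 on card A and -5.66 on card B. limma 3.58.1 in R 4.3.3 fitted the 4 group means over 12 animals (two-sided, 8 residual degrees of freedom). It was also run on simulated levels with independent noise and planted differences larger than those of the members. That run does not show how differences of their size are found.

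The members, lists, named microRNAs and alternatives were chosen with earlier results of these data known. Named were all members, 3 lists (let-7 partners, other assays of the members, the rest of the let-7 family), the neighbours in rank and the 3 assays most alike to each member. Wells of card B run as pairs differed by a median of 0.192 Ct between Ct 25 and 30 and 0.755 between 32 and 35, and U6 wells on card A had an SD of at most 0.15. With these alternatives the scaling, detection limit, floor, filter, control group, spread and animals were varied.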

Additional observations from a re-analysis of the deposited data

How the results depend on the processing

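No member passed the adjusted threshold under any alternative run (0 of 255 values, lowest limma adjusted p 0.148), but 37 of the 255 changed sign. Some alternatives, such as blocking by replicate number or dropping the filter, left the difference of a member as it was. Its sign could not turn there, so 37 of 255 is not a measure of how stable the signs are. The changes of sign under alternatives other than leaving out an animal follow, as log2 differences, together with those of the let-7 partners and miR-99b*, which are not among the 255. Scaled to U6, miR-99b was at -0.011 in MCK-PPARa against NTGa, 0.28 in MCK-PPARb against NTGb and 0.48 in NTGa against NTGb, miR-125a-5p at 0.10 in the last, and miR-99b, miR-125a-5p and miR-125b-5p at -0.29, -0.41 and -0.39 in the difference of the effects; in MCK-PPARb against NTGb let-7c was at 0.31 and miR-99b* at 0.057. Without scaling, miR-99b was at -0.0083 in MCK-PPARa against NTGa, 0.010 in MCK-PPARb against NTGb and 0.27 between the controls, the 3 members at -0.019, -0.14 and -0.12 in the difference of effects, and let-7c at 0.043 in MCK-PPARb against NTGb. With the endogenous controls, miR-99b and let-7c were at 0.065 and 0.097 in MCK-PPARb against NTGb, miR-125a-5p and miR-125b-5p at -0.093 and -0.076 in the difference of effects, and miR-99b at 0.057 between the controls. With the median, miR-125b-5p was at -0.075 in MCK-PPARb against NTGb and -0.14 between the controls. Against NTGa in place of NTGb, MCK-PPARb mice gave 0.039 for miR-99b, 0.079 for miR-125a-5p, -0.036 for miR-125b-5p, 0.26 for let-7c, -0.052 for let-7e and 0.32 for miR-99b*; against all 6 controls they gave 0.0017 for miR-99b and 0.13 for let-7c. With no detection limit, miR-125a-5p was at -0.0081 in the difference of effects and miR-99b at 0.017 between the controls. With animal weights let-7c was at 0.11 in MCK-PPARb against NTGb, miR-125a-5p at -0.049 in the difference of effects and miR-99b at 0.040 between the controls. The cause of these changes of sign was not tested.

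Leaving out each animal in turn gave -0.63 to 0.093 for miR-125a-5p in MCK-PPARa against NTGa. In MCK-PPARb against NTGb it gave -0.25 to 0.18 for miR-99b, -0.12 to 0.17 for let-7c and -0.56 to 0.11 for miR-99b*. In the difference of effects it gave -0.0075 to 0.43 for miR-99b, -0.26 to 0.47 for miR-125a-5p and -0.027 to 0.23 for miR-125b-5p, and between the controls -0.29 to 0.15 for miR-99b. Among the added Ct differences it gave -0.10 to 0.30 for let-7c minus miR-125b-5p in MCK-PPARb against NTGb and -0.66 to 0.077 for let-7a minus miR-125b-5p in MCK-PPARa against NTGa. Ranked over both cards, miR-125b-5p stood at 43, miR-125a-5p at 59 and miR-99b at 128 of 584.

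The labels say only that replicates are biological, so animals were not paired by replicate number. Deviations of same-numbered animals correlated at -0.29, 0.06 and -0.11 in the PPARa line and at 0.18, -0.02 and 0.22 in the PPARb line. Those of other-numbered animals lay from -0.22 to 0.25 in the PPARa line and from -0.32 to 0.15 in the PPARb line. With 3 animals per group these values cannot decide whether the numbers pair the animals. With the replicate block 0 members were called in any comparison. Over all assays it called 9 in MCK-PPARa against NTGa (6 without it), 0 in MCK-PPARb against NTGb (0), 3 in the difference of effects (3) and 6 between the controls (5).

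Over all assays, scaling to U6 moved the median difference to 0.33 in MCK-PPARb against NTGb, 0.49 between the controls and -0.35 in the difference of effects, no scaling to 0.15, 0.29 and -0.11, and the median of the card to -0.05, -0.22 and 0.26. Counts of called assays moved most between the controls, to 29 with U6 (26 higher and 3 lower, where 3 and 2 had been) and 14 with animal weights, but to 0 with Ct 32 as the limit, where undetected values were missing or with assays detected in all 12 animals, to 1 with no limit, no filter or only the groups compared, and to 0 to 3 without single animals. In the difference of effects they moved to 7 with U6 (1 higher and 6 lower, where 1 and 2 had been), 1 with the median and 6 without NTGb replicate 2. In MCK-PPARa against NTGa they moved to 3 with undetected values missing, and the split of 3 higher and 3 lower to 1 and 3 with U6 or no scaling. In MCK-PPARb against NTGb 1 was called with animal weights, without MCK-PPARb replicate 3 and without NTGb replicate 2. With 3 animals per group and 1 well per member, precision is limited.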
